A study of Capra hircus with 2 samples.

Results

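FOS, JUN, EGR1, ATF3 and MYC are transcription factor genes known for fast, transient induction, and their transcripts were compared between fetal and 6-month goat skeletal muscle. Each was taken by its RefSeq accession, a cattle transcript, from the list of transcripts deposited for each library. All 5 accessions had reads in both libraries, out of 11663 accessions listed in either. The tissue was longissimus thoracis, a long muscle of the back, from the Chinese Xuhuai breed of goat (Capra hircus). There were 2 libraries. The fetal library came from embryos at day 90, where gestation lasts 150 days, and held 12811117 unique reads. The other came from goats aged 6 months and held 9144138. No treatment or genotype is given for either, and neither is the number of animals pooled. The sampling text for the 6-month goats is the same as that for the embryos, so how the older muscle was collected is not known from it. With 1 library per stage there is no replicate check and no p-value. The 95% intervals below cover counting error only and compare these libraries, not the stages.

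Immediate early genes are transcribed within minutes of a signal such as a growth factor, mechanical load, wounding or cell stress, without the need for new protein. Their RNAs are short-lived, so their level follows recent events in a tissue. FOS and JUN proteins pair through leucine zippers to form AP-1, which binds DNA and switches on later genes. JUN can also pair with itself or with ATF3, a zipper protein induced by many kinds of stress that often represses its targets. EGR1 binds GC-rich DNA through zinc fingers, and its gene, like FOS, is a classic target of serum response factor. MYC pairs with MAX and drives growth, ribosome production and division, and in muscle precursors it opposes differentiation. Exercise and injury are known to induce FOS, JUN, EGR1 and ATF3 in adult skeletal muscle, and the removal and handling of tissue can induce such genes too.

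The genes fell into unlike patterns. ATF3 and FOS were far higher in the 6-month library, with read shares 11.0-fold and 5.10-fold those of the fetal library. On the deposited RPKM, JUN, the most abundant of the group, had nearly the same level in both, and MYC and EGR1 were lower at 6 months, with fetal read shares 1.78-fold and 1.38-fold those at 6 months. Centred on the median ratio of all transcripts, MYC was 1.19-fold higher in the fetal library, while JUN and EGR1 were 1.45-fold and 1.08-fold higher at 6 months, the last with an interval that holds equality. Levels are given as the authors' RPKM, reads scaled to the length of the transcript and to all unique reads of the library. The 5 transcripts have listed lengths of 1998 to 2211 bases, so RPKM and read numbers order them alike.

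**Figure D1:**
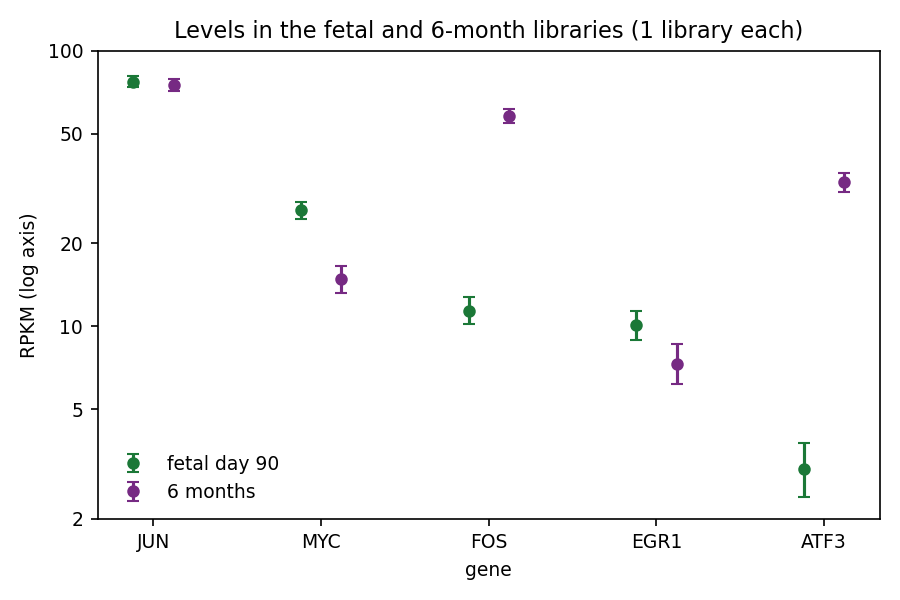
RPKM (vertical axis, log scale) of the 5 genes in the fetal (green) and 6-month (purple) libraries, 1 library each; bars are exact Poisson 95% intervals of the read count. FOS and ATF3 stand higher at 6 months (58.0 and 33.3 against 11.4 and 3.03), JUN overlaps, and MYC and EGR1 stand lower on this scale, EGR1 not after centring on the median ratio.

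FOS (NM_182786), the AP-1 partner that is usually scarce in resting tissue, had 311 reads in the fetal library (RPKM 11.4, Poisson interval 10.2 to 12.7). It had 1131 reads at 6 months (RPKM 58.0, interval 54.7 to 61.5). The intervals lay far apart. In the fetal library FOS was a transcript of middling abundance, above 58.1% of listed accessions, and at 6 months it was above 90.2%. The read share at 6 months was 5.10-fold the fetal share (exact conditional binomial interval 4.49 to 5.79).

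JUN (NM_001077827), the AP-1 subunit that can act without FOS, had 1978 fetal reads (RPKM 77.3, interval 73.9 to 80.8) and 1372 reads at 6 months (RPKM 75.1, interval 71.2 to 79.2). These intervals overlap. The fetal read share was 1.03-fold that at 6 months (0.96 to 1.10), so no difference was detectable at this depth on the deposited scale. One of more than about 10% lay outside the interval, which covers counting error over the whole listed length. The part of the JUN transcript touched by reads was smaller in fetal muscle (86.94%) than in the older muscle (96.25%). JUN levels per covered base were not compared between the libraries, so the bound does not extend to them. JUN ranked 934 of 11393 accessions by RPKM in the fetal library and 865 of 10850 at 6 months.

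ATF3 (NM_001046193), the stress-induced member, had only 78 reads in the fetal library (RPKM 3.03, interval 2.39 to 3.78). At 6 months it had 612 reads (RPKM 33.3, interval 30.7 to 36.0). It was thus below the median of listed accessions in the fetal library (0.37 times the median RPKM) and 6.31 times the median at 6 months. Its read share at 6 months was 11.0-fold the fetal share (8.67 to 14.1), the widest interval of the group, since it rests on 78 fetal reads.

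EGR1 (NM_001045875), the zinc finger factor, had 279 fetal reads (RPKM 10.1, interval 8.95 to 11.4) and 144 reads at 6 months (RPKM 7.30, interval 6.16 to 8.60). The fetal read share was 1.38-fold that at 6 months (1.13 to 1.70) on the deposited scale, a direction that turns with centring. On neither scale did EGR1 come near the 6-month excess of FOS. It was the least abundant of the 5 at 6 months.

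MYC (NM_001046074), the growth regulator, had 747 fetal reads (RPKM 26.4, interval 24.5 to 28.3) and 300 reads at 6 months (RPKM 14.8, interval 13.2 to 16.6). The fetal read share was 1.78-fold that at 6 months (1.55 to 2.04). MYC was above 77.0% of listed accessions in the fetal library and above 71.4% at 6 months. In bulk tissue, fewer cells that make a transcript and less of it per cell cannot be told apart, for MYC as for the others.

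Differences were then set beside those of all transcripts, as log2(RPKM + 1) in the fetal library minus that at 6 months. A difference of at least 1, about 2-fold, was called. It was -3.09 for ATF3, -2.25 for FOS, 0.04 for JUN, 0.42 for EGR1 and 0.79 for MYC. The pseudocount of 1 shrinks the values of low transcripts, ATF3 in particular. Of the 5 genes, 2 were called higher at 6 months, against 9.46% of the 9705 accessions compared. None (0) was called higher in the fetal library, against 35.1% of all accessions. The median difference was 0.04 over the 5 and 0.61 over all accessions compared. ATF3 lay at the far end of the distribution, as 114 of 9705 accessions (1.17%) had a difference as low as or lower than its own. For FOS this number was 269 (2.77%). MYC and EGR1 lay in the middle, with 56.7% and 42.4% of accessions at or below them, and JUN stood at 29.8%.

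Abundance alone can move such a position, so each gene was also placed among accessions of like mean RPKM. The band of mean RPKM from 10 to 100 held 4051 accessions, of which 11.3% were called higher at 6 months and 32.4% higher in the fetal library. Its median difference was 0.47. In that band 1.43% of accessions were at or below ATF3 and 3.36% at or below FOS. The mean is taken over the same 2 libraries, so the band is not independent of the difference. ATF3, with a fetal RPKM of 3.03, was in this band only through its 6-month level. JUN stood at 34.7% and MYC at 61.0% of the same band. EGR1, in the band under 10, had 36.1% of 4934 accessions at or below it.

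**Figure D2:**
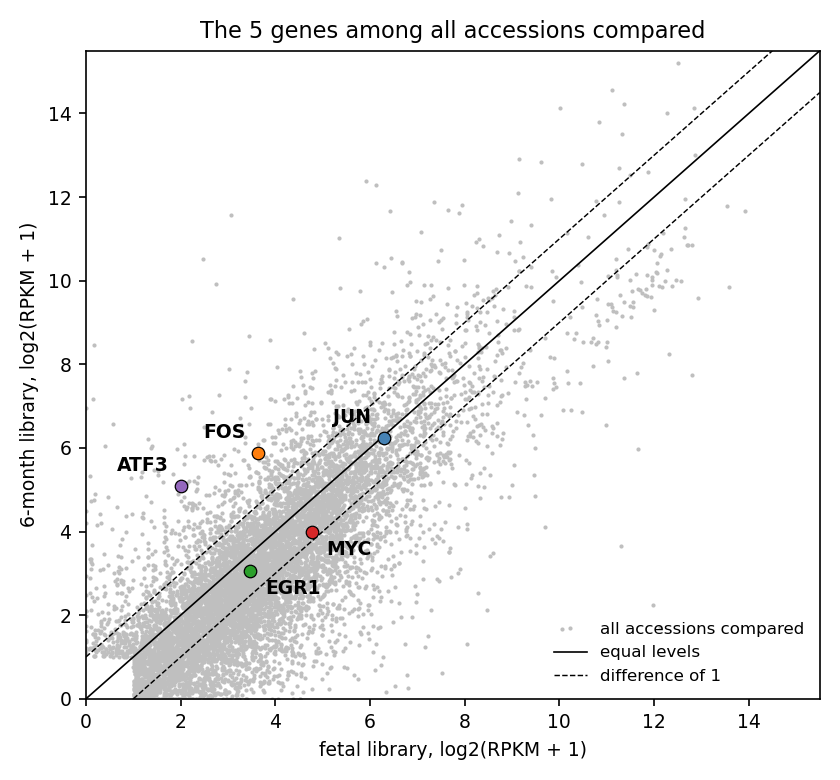
Each grey point is 1 of the 9705 accessions compared, by log2(RPKM + 1) in the fetal library (horizontal) and at 6 months (vertical); the solid line marks equal levels and the dashed lines a difference of 1. ATF3 and FOS lie above the upper dashed line at the edge of the cloud, while JUN, MYC and EGR1 lie between the lines.

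The deposited RPKM had a median shift between the libraries, which bears on the 3 genes with small differences. Over all accessions compared, the log2(RPKM + 1) differences had quartiles of -0.14 and 1.30, so the shift was not uniform. Where both libraries reached an RPKM of 1 (8201 accessions), fetal RPKM exceeded 6-month RPKM by a median of 0.58 log2 units, a factor of 1.49. Relative to that shift, JUN was higher at 6 months, by 1.45-fold (1.35 to 1.56). EGR1 changed sides, to 1.08-fold higher at 6 months, and its interval of 0.88 to 1.32 holds equality. MYC kept a slightly higher fetal share, 1.19-fold (1.04 to 1.37). FOS and ATF3 became 7.61-fold (6.70 to 8.65) and 16.4-fold (13.0 to 21.1) higher at 6 months. After this centring, 17.2% of all accessions were called higher at 6 months and 22.3% higher in the fetal library, and the same 2 genes, FOS and ATF3, were called. Which scale is right for JUN, EGR1 and MYC cannot be told from these libraries.

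**Figure D3:**
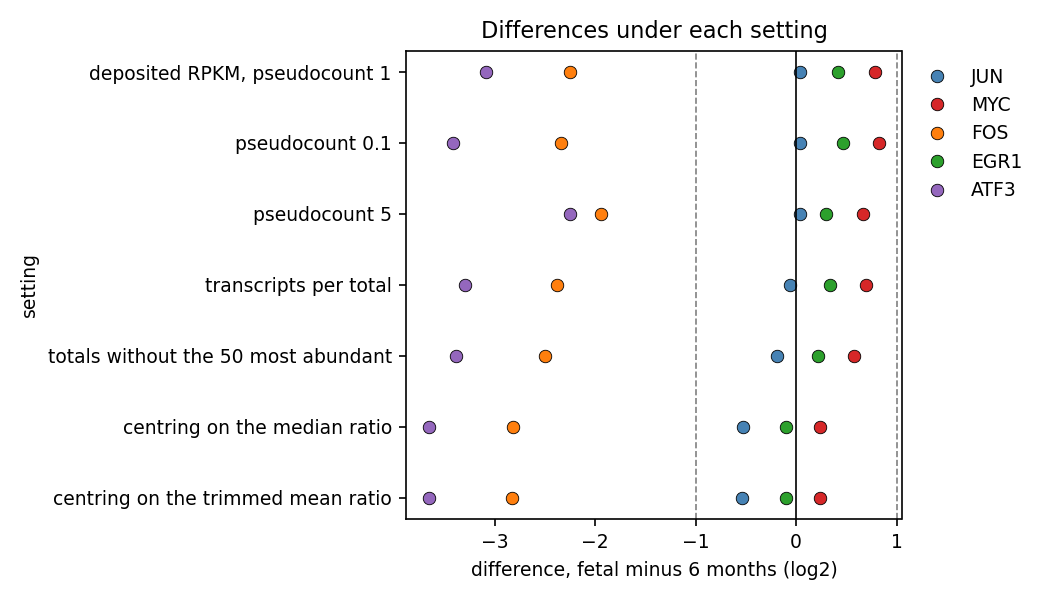
Difference between libraries (horizontal axis, log2, fetal minus 6 months) of the 5 genes under each of 7 settings (vertical axis); the solid line marks 0 and the dashed lines a difference of 1 either way. FOS and ATF3 lie beyond -1 in every setting, JUN and EGR1 change sides with the scaling, and MYC stays between 0.24 and 0.83.

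The order of the genes within a library does not depend on a scaling between libraries. The goat reads were counted on cattle transcripts, and whether they were placed equally well on each gene was not tested. In the fetal library the order per length was JUN, MYC, FOS, EGR1 and ATF3. JUN was at 2.93 times the level of MYC (2.69 to 3.19), and MYC at 2.32 times that of FOS (2.03 to 2.65). FOS and EGR1 could not be ordered, with a ratio of 1.13 (0.96 to 1.33). EGR1 stood at 3.33 times the level of ATF3 (2.58 to 4.34). The highest level was 25.5 times the lowest.

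At 6 months the order was JUN, FOS, ATF3, MYC and EGR1. JUN was at 1.29 times the level of FOS (1.20 to 1.40), FOS at 1.74 times that of ATF3 (1.58 to 1.93), ATF3 at 2.24 times that of MYC (1.95 to 2.59) and MYC at 2.03 times that of EGR1 (1.66 to 2.50). All neighbours were separated beyond counting error. The highest level was here 10.3 times the lowest. ATF3 thus stood last in the fetal library and in the middle at 6 months, and MYC went from next after JUN to next to last.

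The make-up of the group differed accordingly. Of the RPKM summed over the 5 genes, FOS and ATF3 held 11.2% in the fetal library and 48.4% at 6 months. JUN and MYC held 80.9% and 47.7%. JUN alone held 60.3% and 39.8%, although its own RPKM hardly differed. The 5 transcripts together took 0.0265% of fetal reads (exact binomial interval 0.0256 to 0.0274) and 0.0389% of 6-month reads (0.0377 to 0.0402).

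The ratios between the genes were compared between the libraries for all 10 pairs, a measure that no scaling between libraries can move. FOS was at 0.15 times the level of JUN in the fetal library and at 0.77 times at 6 months, so this ratio of AP-1 partners was 5.24-fold higher at 6 months (exact conditional interval 4.53 to 6.07). ATF3 relative to JUN went from 0.039 to 0.44, 11.3-fold higher (8.82 to 14.6). ATF3 relative to MYC showed the widest shift, from 0.11 to 2.24, 19.5-fold (14.8 to 25.9). FOS relative to EGR1 went from 1.13 to 7.95, 7.05-fold (5.52 to 9.0), so FOS and EGR1 did not keep a common ratio. ATF3 relative to FOS was 2.16-fold higher at 6 months (1.64 to 2.86), which shows that the pair did not differ to the same extent.

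The ratios among JUN, EGR1 and MYC moved less. JUN relative to MYC was 1.73-fold higher at 6 months (1.48 to 2.02), JUN relative to EGR1 1.34-fold (1.08 to 1.67) and EGR1 relative to MYC 1.29-fold, with an interval from 1.0007 to 1.65. The intervals of all 10 pairs excluded equality, the last only just, and none was adjusted for the number of pairs.

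**Figure D4:**
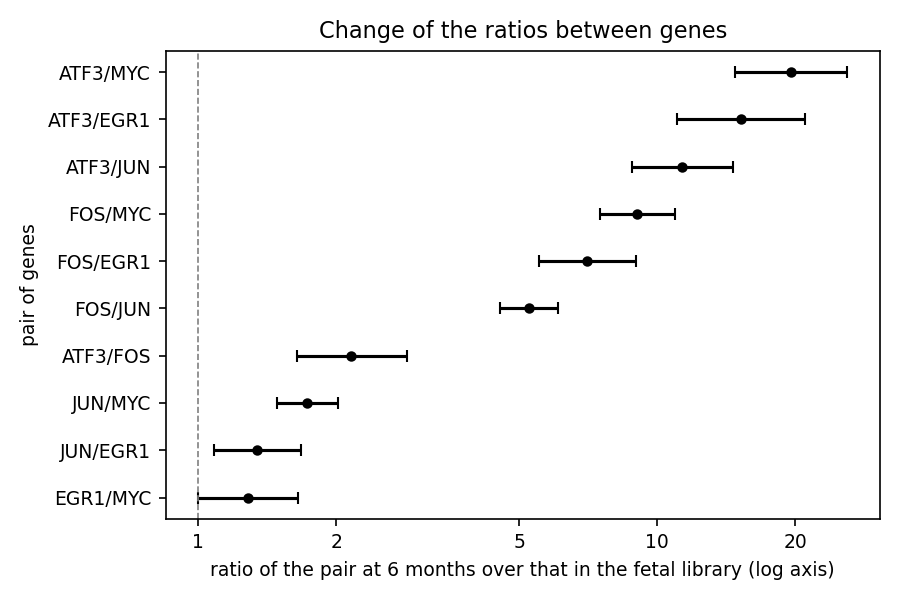
Ratio between 2 genes at 6 months divided by the same ratio in the fetal library (horizontal axis, log scale) for the 10 pairs (vertical axis); bars are exact conditional 95% intervals and the dashed line marks no change. Pairs of ATF3 or FOS with JUN, EGR1 or MYC lie between 5.24 and 19.5, and the other 4 between 1.29 and 2.16.

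Reads touched most of each transcript. Coverage counts bases with any read and does not show how evenly reads lie. A read spanned 90 bases, as judged from accessions with a single read. In the fetal library the listed transcript was covered to 90.2% for EGR1, 88.5% for MYC, 86.9% for JUN, 83.1% for FOS and 65.1% for ATF3. At 6 months the values were 96.3% for JUN, 94.7% for FOS, 88.4% for MYC, 82.3% for EGR1 and 79.5% for ATF3. For FOS, ATF3 and EGR1 the library with more reads had the higher coverage.

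ATF3 had the lowest coverage of the 5 in both libraries. At 6 months, with 27.4 read-bases per base, 412 of its 2010 bases had no read. Of 616 other accessions of like depth (at most 25% deeper, or shallower by the same factor), 25.2% had a lower coverage, and their median was 86.9% (interquartile range 79.3% to 92.5%), so ATF3 lay just inside the range of its like. In the fetal library ATF3 had 3.49 read-bases per base and 701 uncovered bases, and 43.1% of accessions of like depth were covered less. The files give no positions, so whether the same bases were uncovered in both is not known. The ATF3 levels are averages over the whole listed length, uncovered part included.

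MYC was covered almost equally, with 254 uncovered bases at 30.4 read-bases per base in the fetal library and 257 at 12.2 at 6 months. JUN went against its read number. It had 1.44 times as many reads in the fetal library and yet 261 uncovered bases there, against 75 at 6 months. At least 186 bases of JUN were therefore read at 6 months and not in the fetal library. Its coverage was above 33.4% of accessions of like depth in the fetal library and above 83.1% at 6 months. FOS was above 51.0% and 74.3% of its like, EGR1 above 80.7% and 67.9%, and MYC above 54.3% and 67.3%.

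**Figure D5:**
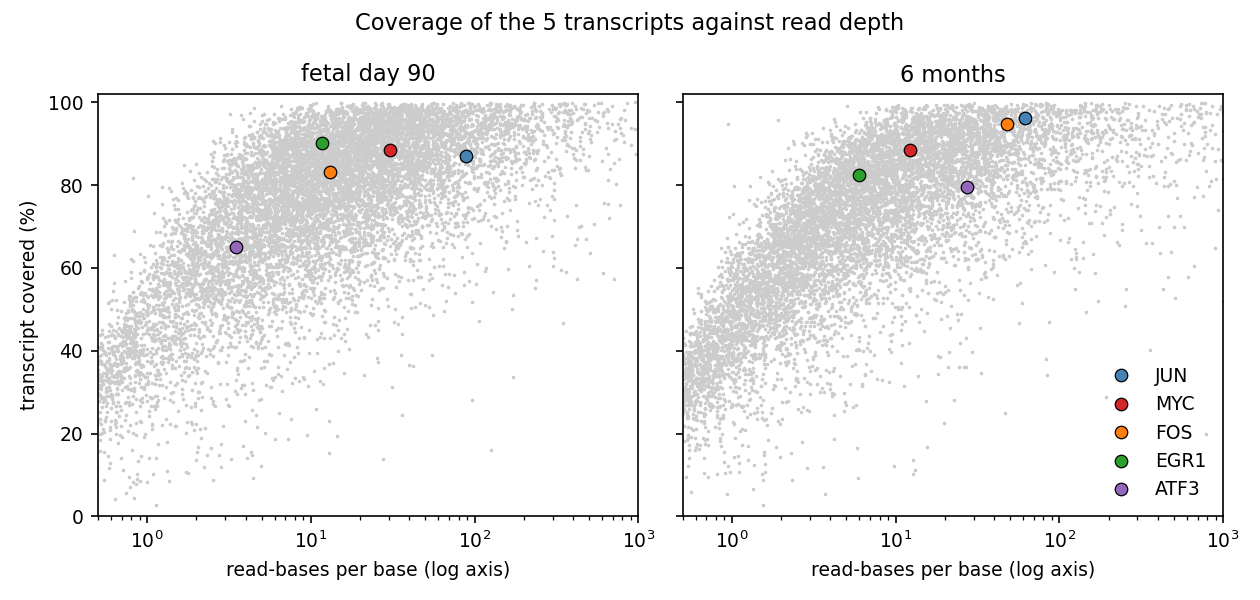
Percentage of the transcript covered by reads (vertical axis) against read-bases per base (horizontal axis, log scale, drawn from 0.5 to 1000) in the fetal (left) and 6-month (right) libraries; grey points are all accessions in that range. JUN lies at 86.9% on the left and 96.3% on the right. ATF3 lies at 79.5% on the right, where the median of its like is 86.9%.

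Stage, the way each muscle was collected and any other difference between single libraries cannot be told apart for any gene of the group. Handling of tissue can induce immediate early genes, and this is not limited to FOS and ATF3. The labels give no time from slaughter to freezing for either stage, and its part in the result was not tested. The files give no gene symbols, and 0 of their 11663 accessions matched a goat RefSeq gene table (assembly ARS1.2). Lists of other immediate early genes, of MYC partners and targets, of stress genes and of cell type markers could therefore not be looked up. For the same reason the labelled tissue was not checked against muscle markers.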

How the data were processed

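RNA was extracted with Trizol from frozen muscle and sequenced by Illumina protocols, per the labels' protocols. The authors' tables give for each transcript, per the file headers, the count of unique reads, its length, the percent of it covered and its RPKM. Not given in the sources used here are the aligner, genome build, transcript set and use of strand. Deposited counts summed to the header totals, and RPKM was recovered from them. A count of 0 would allow 2.34e-05% of fetal and 3.28e-05% of 6-month reads (3 counts).

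The 5 genes, named by accession, and all lists were chosen with earlier results of these data known. Gene names come from the definition of the group, which gives the accessions as cattle transcripts, so goat reads were counted on cattle sequence. No other accession is named, since none had a symbol. The comparison took accessions that reached an RPKM of 1 in the fetal or the 6-month library. Intervals (95%) are exact Poisson, binomial (Clopper-Pearson) or conditional odds ratio ones. PCR duplicates are not separate molecules. The procedure was tested on simulated Poisson counts, drawn from a shared profile with set changes. That simulation did not include the median shift between these libraries, and recovery of low transcripts was not required in it. Alternatives varied the pseudocount, scaling, threshold, filters, length used and depth window. Centring raised the 6-month levels by the median (or 30% trimmed mean) log2 ratio before the pseudocount. The work used SciPy 1.17.1, NumPy 2.4.6 and pandas 2.3.3 under Python 3.11.15, with plots by matplotlib 3.10.9.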

Additional observations from a re-analysis of the deposited data

How the results depend on the processing

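No paired analysis was possible because each stage had 1 library, and for the same reason no library could be left out. FOS and ATF3 were called higher at 6 months, and no gene of the 5 higher in the fetal library, under all 7 alternatives to that count. A pseudocount of 5 moved FOS to -1.94 and ATF3 to -2.25, and one of 0.1 moved ATF3 to -3.42 log2 units. Centring on the median ratio gave -2.82 for FOS, -0.53 for JUN, -0.10 for EGR1, -3.65 for ATF3 and 0.24 for MYC. Centring on the trimmed mean gave -2.83, -0.53, -0.10, -3.66 and 0.24. Totals without the 50 most abundant accessions gave -2.50 for FOS, -0.19 for JUN, -3.39 for ATF3 and 0.58 for MYC. Transcripts-per-total scaling moved JUN to -0.065. The ratio of fetal to 6-month read share became 0.13 for FOS, 0.69 for JUN, 0.93 for EGR1, 0.061 for ATF3 and 1.19 for MYC after median centring. Per covered base, EGR1 was at 2.41 times ATF3 in the fetal library and FOS at 1.46 times ATF3 at 6 months, each in the same order as before. Over all accessions, 3411 were called for the fetal library and 918 for 6 months. The fetal number became 1811 with a pseudocount of 5, 2162 and 2157 with the centrings and 1051 at a threshold of 2. The 6-month number became 1674 and 1678 with the centrings and 339 at that threshold. The cause of these moves was not tested. Depth limits ATF3 most, with 78 fetal reads.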

Other observations

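The following counts were chosen after the values were seen. Of 1732 other accessions with a 6-month RPKM at least that of ATF3, 19 (1.10%) had a fetal RPKM at or below its 3.03. Of 1059 others with a 6-month RPKM at least that of FOS, 35 (3.31%) had a fetal RPKM at or below its 11.4. Counted the same way, the share was 716 of 4672 (15.3%) for EGR1, 285 of 864 (33.0%) for JUN and 1027 of 3101 (33.1%) for MYC. The cut-offs are each gene's own RPKM, so these shares restate the differences above and are no separate support for them.

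JUN was covered 9.31 percentage points more at 6 months, from fewer reads. Among 1311 other accessions with more reads in the fetal library and a depth of 20 read-bases per base or more in each, 378 had the higher coverage at 6 months. In 20 of these 1311 (1.53%) the gain was at least as large as that of JUN. These accessions were not matched to JUN in fetal coverage or in its ratio of fetal to 6-month reads (1.44). Those almost fully covered in the fetal library could not gain as much. The share therefore does not say how rare such a gain is among accessions like JUN.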
